A study of Mus musculus with 12 samples.

Results

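Expression of 10 purine genes was followed in RNA-Seq of whole lungs: *Gda*, *Xdh*, *Pnp*, *Ada*, *Hprt*, *Aprt*, *Adk*, *Nt5e*, *Nt5c2* and *Impdh2*. They were found by gene symbol in a count table of 55487 genes, and all 10 were kept when edgeR's filter on low expression left 45828 genes to test. *Gda* was picked because it was the one gene called lower after hyperoxia in the female lungs, so its values in the females, and any mean that holds the females, are a description here and carry no test. The other 9 were added for their role in the purine pathway.

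The lungs came from 12 C57BL/6J mice of postnatal day (PND) 21. Every mouse, controls included, was *miR-30a*-/-, a CRISPR/Cas9 deletion of the whole *miR-30a* gene in all cells, and wild-type lungs were not analysed here. Of each sex, 3 mice had been exposed to hyperoxia (95% FiO2) from PND 1 to PND 5 and had then recovered in room air, and 3 had stayed in room air throughout. Pups of several litters had been pooled and divided between the exposures, the dams were rotated, and the right ventricle was perfused with cold saline before the lungs were frozen.

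Purine bases and nucleosides set free when nucleotides are broken down are either salvaged into new nucleotides or oxidized to uric acid. Guanine deaminase, the product of *Gda*, takes guanine out of the salvage route by turning it into xanthine, and xanthine dehydrogenase, the product of *Xdh*, oxidizes hypoxanthine and xanthine to uric acid. In injured tissue extracellular ATP and adenosine are also signals, and the enzymes that make and remove adenosine belong to the same network.

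The sequences below show the microRNA that all 12 mice lack, with its seed (bases 2 to 8) in capitals, and the 250 bases before the RefSeq start of *Gda*, the gene on which the results turn. The *Gda* stretch lies on the minus strand of GRCm38.p6 at chr19:21472662-21472911, which is inside the GENCODE gene, since 1 transcript starts farther upstream. Its last bases fall in the first exon of another GENCODE transcript. The mature microRNA lies on the plus strand at chr1:23272274-23272295.
mmu-miR-30a-5p: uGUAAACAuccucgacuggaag
Gda upstream: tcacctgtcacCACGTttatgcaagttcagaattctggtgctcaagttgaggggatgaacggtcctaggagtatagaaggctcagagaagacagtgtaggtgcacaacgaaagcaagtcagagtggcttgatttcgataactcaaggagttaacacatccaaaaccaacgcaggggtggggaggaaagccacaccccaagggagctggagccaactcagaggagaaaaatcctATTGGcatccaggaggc
Capitals in the *Gda* stretch mark 1 match to the CCAAT box (CCAAT) and 1 to the core of the hypoxia response element (ACGTG), both read here on the opposite strand. On either strand these letters are found in 33.8% and 16.6% of the 32851 mouse promoter windows of the same length. The stretch has no GC box (GGGCGG, in 32.7% of windows), no TATA box (TATAAA, in 12.4%) and no antioxidant response element core (TGACNNNGC, in 10.2%). It holds 5 CpG dinucleotides, where the median window holds 6. Windows were found for 9 of the 10 genes, all but *Xdh*, and the windows of *Ada*, *Aprt*, *Nt5e*, *Impdh2*, *Adk*, *Pnp* and *Hprt* each held a GC box and at least 11 CpG. *Nt5c2* had 7 windows, of which 3 lacked a GC box.

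The libraries held 8763033 to 16741694 counts each, and the 10 genes had between 68 (*Hprt*) and 5493 (*Xdh*) counts in a lung. Levels are given as CPM, that is, counts divided by the upper-quartile normalized library size. Genes counted as called where edgeR's quasi-likelihood test gave an adjusted p (Benjamini-Hochberg, over all genes tested) under 0.05 and the fold change exceeded 1.5. The sum over 10 alveolar type 2 cell markers ran from 5080 to 12500 CPM, and none of these markers was at 0. Reads on olfactory and vomeronasal receptor genes, which lung is not known to transcribe at high level, served as a measure of background. They made up 0.453 to 1.04% of a library, with 0.615 ± 0.187% in room air females, 0.845 ± 0.1% in hyperoxia-exposed females, 0.852 ± 0.144% in room air males and 0.803 ± 0.237% in hyperoxia-exposed males (SD, n = 3).

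Levels of different genes were compared as CPM per kilobase of exon, averaged over the 12 lungs. *Xdh* had the highest level of the 10, at 22.3 ± 8.99 CPM per kb (SD, n = 12). It was followed by *Gda* at 11.5 ± 4.91, *Hprt* at 11.3 ± 3.39, *Aprt* at 7.91 ± 1.02 and *Nt5e* at 6.60 ± 0.886 CPM per kb. Below these came *Adk* at 6.37 ± 1.39, *Ada* at 6.24 ± 0.419, *Nt5c2* at 5.36 ± 0.879, *Impdh2* at 4.99 ± 0.495 and *Pnp* at 3.44 ± 0.458 CPM per kb. Neighbours in this order were compared within lungs, and a step counted as larger than the spread where the mean difference exceeded its SD over the 12 lungs. *Xdh* over *Gda* (10.8 ± 9.2 CPM per kb), *Hprt* over *Aprt*, *Aprt* over *Nt5e* and *Impdh2* over *Pnp* were such steps, whereas *Gda* and *Hprt*, *Nt5e* and *Adk*, *Adk* and *Ada*, *Ada* and *Nt5c2*, and *Nt5c2* and *Impdh2* did not differ beyond their spread.

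The place of *Gda* in this order was not the same in all lungs. Its rank among the 10 genes was between 1 and 3 in the 6 room air lungs. In the hyperoxia-exposed lungs it was 8, 3 and 4 in females 2, 4 and 5, and 6, 2 and 2 in males 1, 2 and 3. With exposures and sexes pooled, *Gda* varied most for its level, with a coefficient of variation of 42.8%, followed by *Xdh* with 40.3% and *Hprt* with 30.1%. *Ada* varied least, with 6.72%. The value for *Gda* includes the exposure difference for which it was picked. Within room air females *Gda* was 105 ± 22 CPM and *Xdh* 278 ± 137 CPM (SD). For its mean, *Gda* varied less than *Xdh* in this group and in both male groups. It varied more in hyperoxia-exposed females, at 39.6 ± 9.98 CPM against 162 ± 34.6 CPM.

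*Gda* (ENSMUSG00000058624) is carried on the minus strand of chromosome 19, where GENCODE places it between 21391307 and 21473445 of GRCm38, with 6235 bases of exon that no other gene shares. In room air it stood at 130, 88.4 and 97.2 CPM in female lungs 2, 5 and 6, and at 75.6, 97.5 and 97.3 CPM in male lungs 1, 4 and 5. After hyperoxia it stood at 28.3, 46.8 and 43.8 CPM in female lungs 2, 4 and 5, and at 48.4, 45.8 and 59.4 CPM in male lungs 1, 2 and 3. The highest hyperoxia-exposed lung was thus below the lowest room air lung, in each sex and over both. Such a separation of the 6 hyperoxia-exposed from the 6 room air lungs, with hyperoxia lower, was found for 0.120% of all genes tested, and in the females alone for 6.42%, but *Gda* was picked for part of it.

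The level of *Gda* after hyperoxia was 0.463 of that in room air over all 12 lungs, a log2 fold change of −1.11 (standard error 0.15). The mean level was 45.4 ± 10.1 CPM in the 6 hyperoxia-exposed lungs and 97.7 ± 18 CPM in the 6 room air lungs (SD). In this comparison 18 genes were called lower (0.0393% of genes tested) and 1 higher (0.00218%), and *Gda* was the only one of the 10 purine genes among them. Its call was lost with the receptor share as a covariate, at a log2 fold change of −1.12 (standard error 0.18). It was also lost with the level of red cell markers, given below, as a covariate. In females alone, where *Gda* was chosen and 0.00218% of genes were called lower, its log2 fold change was −1.41 (standard error 0.21), so that hyperoxia-exposed females held 0.377 of the room air level. The call in females was lost with either covariate, with TMM normalization and in 4 of the 6 fits that left out a lung.

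The male lungs did not choose *Gda*, and there the comparison can be tested. Its level was 51.2 ± 7.23 CPM in hyperoxia-exposed males and 90.1 ± 12.6 CPM in room air males (SD, n = 3). Hyperoxia against room air gave a log2 fold change of −0.81 (standard error 0.21, 95% interval −1.25 to −0.38), or 0.569 of the room air level. The p-value was 0.000608 without adjustment and 1 with adjustment over all 45828 genes (edgeR quasi-likelihood test), so *Gda* was not called in the males, as was no other gene (0% called). An exact two-sided permutation test of the 6 log2 CPM values gave p = 0.1, the smallest value that 3 lungs against 3 allow. By unadjusted p *Gda* was the 16th of the 45828 genes in the males. This rank, the standard error, the interval and the edgeR p-values use the spread shared with the females. A fit of the 6 male lungs alone gave −0.81 (standard error 0.22) and no call of *Gda*. Its log2 fold change in females less that in males was −0.60 (standard error 0.30).

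**Figure D1:**
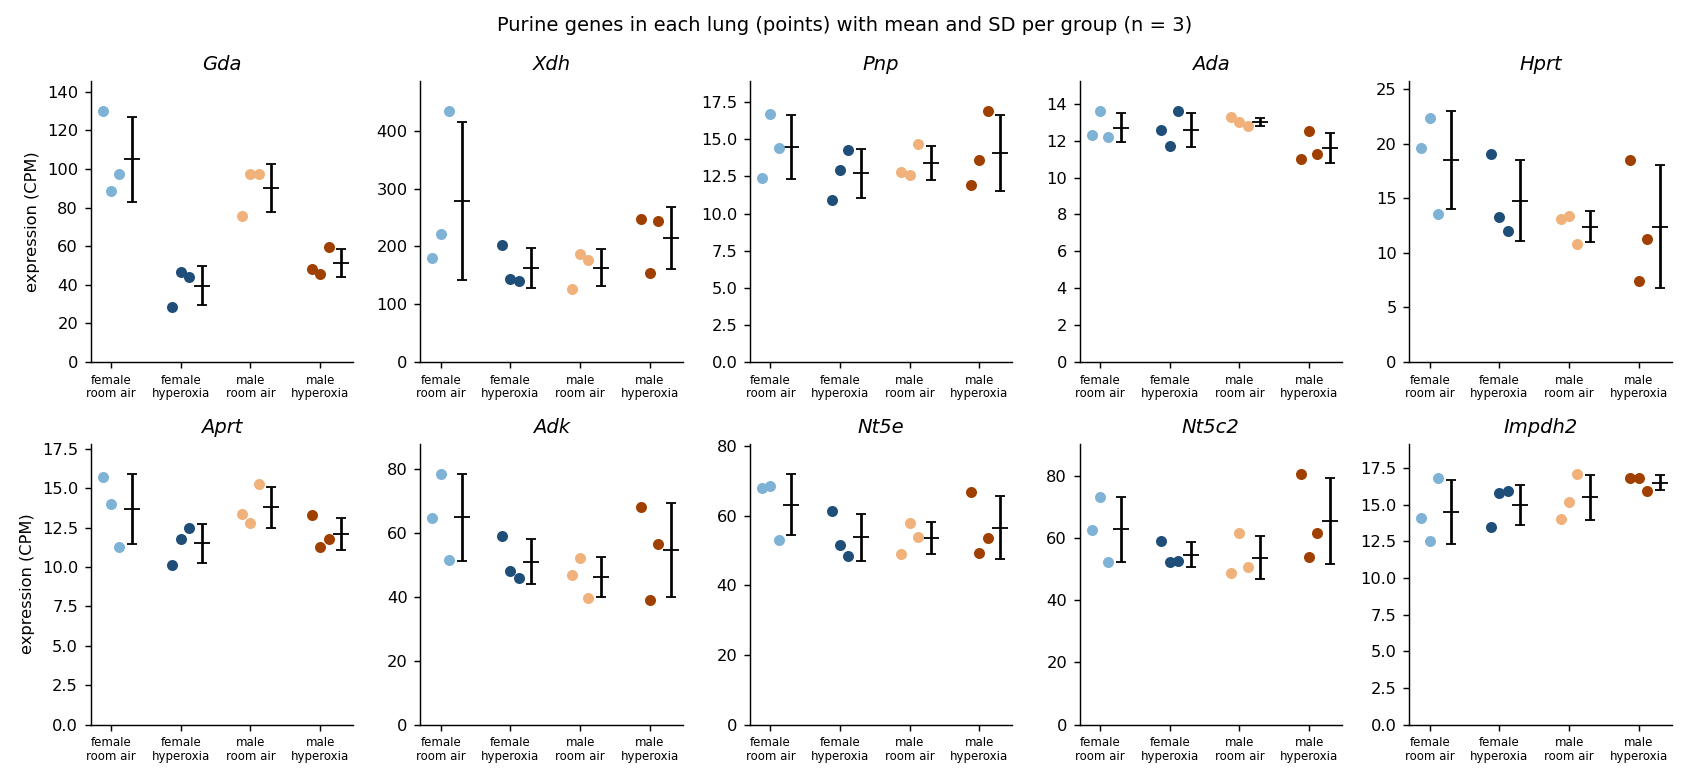
Expression of the 10 purine genes in CPM (vertical axes, each from 0) in the 12 lungs, grouped by sex and exposure; each point is 1 lung, and the black bars give the mean and SD of the 3 lungs of a group. For *Gda* all 6 hyperoxia-exposed lungs lie between 28.3 and 59.4 CPM and all 6 room air lungs between 75.6 and 130 CPM, while the exposures overlap for the other 9 genes when both sexes are pooled.

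The red cell markers moved together with *Gda*. The list holds 7 genes, among them the globin genes *Hba-a1*, *Hba-a2*, *Hbb-bs* and *Hbb-bt*, the heme synthesis gene *Alas2* and the anion exchanger gene *Slc4a1*, and none of the 7 was at 0 counts. Their summed level was 5670 to 8180 CPM in room air females and 1310 to 3050 CPM in hyperoxia-exposed females, and 5270 to 7600 CPM in room air males and 2210 to 4820 CPM in hyperoxia-exposed males. All 7 had a negative log2 fold change in the females, in the males and over all lungs. Among those called lower over all 12 lungs were *Hba-a2*, *Hbb-bt* and *Alas2* (log2 fold changes of −1.24, −1.28 and −1.11, adjusted p from 0.0129 to 0.0233, edgeR), and 0 of the 7 were called in either sex alone.

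Per 1000 CPM of these red cell markers, *Gda* stood at 15.5 ± 0.551 CPM in room air females, 18 ± 3.24 CPM in hyperoxia-exposed females, 14.5 ± 1.73 CPM in room air males and 17.9 ± 4.78 CPM in hyperoxia-exposed males (SD, n = 3). On this scale the exposures overlapped, since hyperoxia-exposed lungs ranged from 12.3 to 21.6 and room air lungs from 12.8 to 16.3. Over the 12 lungs the log2 level of *Gda* and that of the marker sum had a Pearson r of 0.97. Each pair of points comes from 1 library, and both measures differ between the exposures. For the other 16 cell type lists r lay between −0.36 and 0.63. With the red cell level as a covariate, added after the values were seen, the log2 fold change of *Gda* was −0.41 (standard error 0.27) over all lungs, −0.57 (0.34) in females and −0.25 (0.27) in males. In whole lung RNA, fewer cells of a type and less RNA per cell cannot be told apart.

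**Figure D2:**
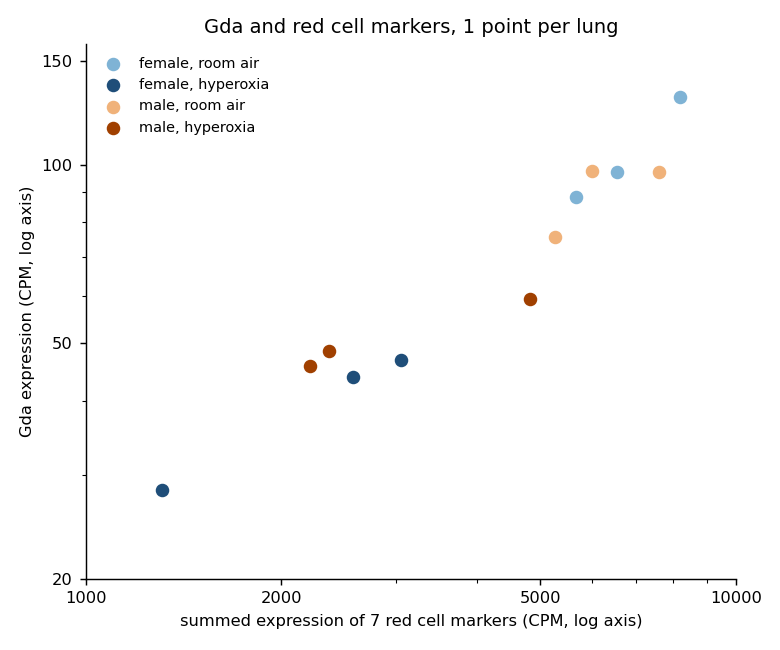
*Gda* level (vertical axis, CPM, log scale) against the summed level of the 7 red cell markers (horizontal axis, CPM, log scale), with 1 point per lung coloured by sex and exposure. The hyperoxia-exposed lungs lie at 1310 to 4820 CPM of red cell markers and at most 59.4 CPM of *Gda*, and the room air lungs at 5270 to 8180 CPM and at least 75.6 CPM.

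The genes most like *Gda* were sought among 16436 genes with a mean of at least 100 counts per lung. Over the 12 lungs the highest Pearson r of log2 levels was that of *Slc25a37*, a mitochondrial iron importer, at 0.98. Next came *Alas2* (0.98), the poly(A) polymerase gene *Tent5c* (0.97), *Hba-a1* (0.97) and *Ube2l6* (0.97), which codes for an enzyme of ubiquitin-like conjugation. When the mean of each group was subtracted first, so that exposure and sex no longer contributed, the most similar genes included *Rgs10* (0.94), *Bpgm* (0.93), *Slc4a1* (0.92) and *Ube2l6* (0.92). *Bpgm* codes for the bisphosphoglycerate mutase of red cells. These values describe 12 libraries and carry no test.

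*Xdh* (ENSMUSG00000024066, chromosome 17) codes for the enzyme that follows guanine deaminase on the way to uric acid. Its levels in room air were 179, 222 and 434 CPM in female lungs 2, 5 and 6, and 126, 186 and 176 CPM in male lungs 1, 4 and 5. After hyperoxia they were 202, 144 and 140 CPM in female lungs 2, 4 and 5, and 248, 153 and 244 CPM in male lungs 1, 2 and 3. The exposures overlapped in each sex, and room air female lung 6 stood far above the other 11. The log2 fold change was −0.78 (standard error 0.29) in females, with an unadjusted p of 0.0126 and an adjusted p of 0.354 (edgeR), and 0.40 (0.29, adjusted p = 1) in males. The difference between the sexes was −1.18 (standard error 0.41), with an unadjusted p of 0.00781 and an adjusted p of 0.578 (edgeR). Without room air female lung 6 the log2 fold change was −0.31 in females and the difference between the sexes was −0.72.

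A pair of enzymes lies just ahead of these steps: *Pnp* (ENSMUSG00000115338, chromosome 14), purine nucleoside phosphorylase, frees guanine and hypoxanthine from their nucleosides, and *Ada* (ENSMUSG00000017697, chromosome 2), adenosine deaminase, turns adenosine into inosine. *Pnp* ranged from 10.9 to 16.9 CPM after hyperoxia and from 12.4 to 16.7 CPM in room air, and its log2 fold change was −0.05 over all lungs (95% interval −0.30 to 0.19). Exons of *Pnp* share bases with *Gm49342* on the same strand and with *Gm38316* on the opposite strand, and its paralog *Pnp2* lies beside it, so its counts are less certain. *Ada* was the steadiest of the 10. It ranged from 11.0 to 13.6 CPM after hyperoxia and from 12.2 to 13.6 CPM in room air.

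In the males the *Ada* values did not overlap, at 11.0, 12.5 and 11.3 CPM after hyperoxia and 13.3, 13 and 12.8 CPM in room air. *Gda* and *Ada* were the only ones of the 10 with this separation in the males, and in both the hyperoxia-exposed lungs were lower, as in 3.89% of all genes tested. For *Ada* in the males the log2 fold change was −0.17 (standard error 0.15, 95% interval −0.48 to 0.13, adjusted p = 1, edgeR). The exact two-sided permutation p was 0.1, the smallest possible with 3 lungs against 3.

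The salvage enzymes proper rebuild nucleotides from bases and nucleosides. *Hprt* (ENSMUSG00000025630, chromosome X) salvages hypoxanthine and guanine, *Aprt* (ENSMUSG00000006589, chromosome 8) salvages adenine, and *Adk* (ENSMUSG00000039197, chromosome 14) phosphorylates adenosine. *Hprt* stood at 19.1, 13.3 and 12 CPM in hyperoxia-exposed females, at 19.6, 22.4 and 13.6 CPM in room air females, at 18.5, 7.4 and 11.3 CPM in hyperoxia-exposed males and at 13.1, 13.4 and 10.8 CPM in room air males. The exposures overlapped in both sexes, and its log2 fold change over all lungs was −0.15 (95% interval −0.51 to 0.20).

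*Aprt* was 11.8 ± 1.07 CPM in the 6 hyperoxia-exposed lungs and 13.7 ± 1.63 CPM in the 6 room air lungs (SD). Its log2 fold change of −0.22 (95% interval −0.45 to 0.02, adjusted p = 0.927, edgeR) was, after that of *Gda*, the most negative of the 10 over all lungs. *Aprt* was also the member, after *Gda*, whose log2 level varied most closely with the red cell marker sum, with a Pearson r of 0.70 over the 12 libraries. With the red cell level as a covariate its log2 fold change over all lungs was −0.02 (standard error 0.23).

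*Adk* levels were 51.1 ± 7.04 CPM in hyperoxia-exposed and 65.0 ± 13.6 CPM in room air females, and 54.7 ± 14.6 CPM in hyperoxia-exposed and 46.3 ± 6.20 CPM in room air males (SD, n = 3). The log2 fold change was −0.35 in females and 0.24 in males, with standard errors of 0.20 each. Their difference was −0.59 (standard error 0.28), with an unadjusted p of 0.0478 and an adjusted p of 0.578 (edgeR). It was −0.08 (adjusted p = 1) when the receptor share was a covariate and −0.54 (adjusted p = 0.00107, below the fold threshold) with 1 RUVr factor. Leaving out a lung moved the *Adk* value in females to between −0.50 and −0.19, the latter without room air lung 5, and in males to between 0.06, without hyperoxia-exposed lung 1, and 0.44, without hyperoxia-exposed lung 2. *Xdh* and *Adk* were the only ones of the 9 genes other than *Gda* whose difference between the sexes had an unadjusted p under 0.05, as did 8.46% of all genes tested, and no gene was called.

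*Nt5e* (ENSMUSG00000032420, chromosome 9) codes for CD73, the cell surface nucleotidase that makes adenosine from AMP. *Nt5c2* (ENSMUSG00000025041, chromosome 19) codes for a cytosolic nucleotidase that prefers IMP and GMP. *Nt5e* ranged from 48.5 to 66.8 CPM after hyperoxia and from 48.9 to 68.7 CPM in room air, with a log2 fold change of −0.08 over all lungs (95% interval −0.34 to 0.18). *Nt5c2* ranged from 52.2 to 80.7 CPM after hyperoxia and from 48.8 to 73.3 CPM in room air, with a log2 fold change of 0.04 (95% interval −0.23 to 0.32). The exposures overlapped for both genes. Some exon bases of *Nt5c2* are shared with *Ina* and *AC122442.1* on the opposite strand.

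*Impdh2* (ENSMUSG00000062867, chromosome 9) codes for the IMP dehydrogenase that commits IMP to the guanine nucleotides, and was included as the entry to the GMP branch. It ranged from 13.5 to 16.8 CPM after hyperoxia and from 12.5 to 17.1 CPM in room air. It had a positive log2 fold change in each sex, 0.06 in females and 0.10 in males (standard errors 0.15 each), neither of which was called. A short stretch of its exons is shared with *Ndufaf3* on the opposite strand.

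Among the 9 genes other than *Gda*, 0 were called after hyperoxia over all lungs, in females, in males or in the interaction. Their median log2 fold change was −0.08 over all lungs, −0.23 in females and 0.08 in males, where the medians of all genes tested were 0.03, 0.11 and −0.01. Of these 9, 7 were negative over all lungs, 8 in females and 2 in males, where 44.0%, 39.0% and 52.0% of all genes tested were negative. These tallies depend on the model. With the receptor share as a covariate *Adk*, *Hprt* and *Nt5e* turned positive over all lungs and in females. In females *Nt5c2* also turned positive and *Impdh2* negative, and in males *Hprt* turned negative. Marker lists of cell types in the lung did not all shift one way. The medians in females were −0.47 for alveolar type 2 cells (10 of 10 negative), −0.46 for alveolar type 1 cells (9 of 9) and −0.41 for endothelium (10 of 10), and those in males 0.18, 0.07 and 0.09. Mesenchyme and airway epithelium markers had negative medians in both sexes, −0.50 and −0.52 in females and −0.23 and −0.20 in males, while T cell and thymocyte markers had medians of 0.17 and 0.36 in females and −0.05 and −0.16 in males. None of these markers was called, and their part in the values of the purine genes was not tested. At an unadjusted p under 0.05 there were 0 of the 9 over all lungs, 1 (*Xdh*) in females and 0 in males, where 5.20%, 12.6% and 2.70% of all genes tested passed.

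**Figure D3:**
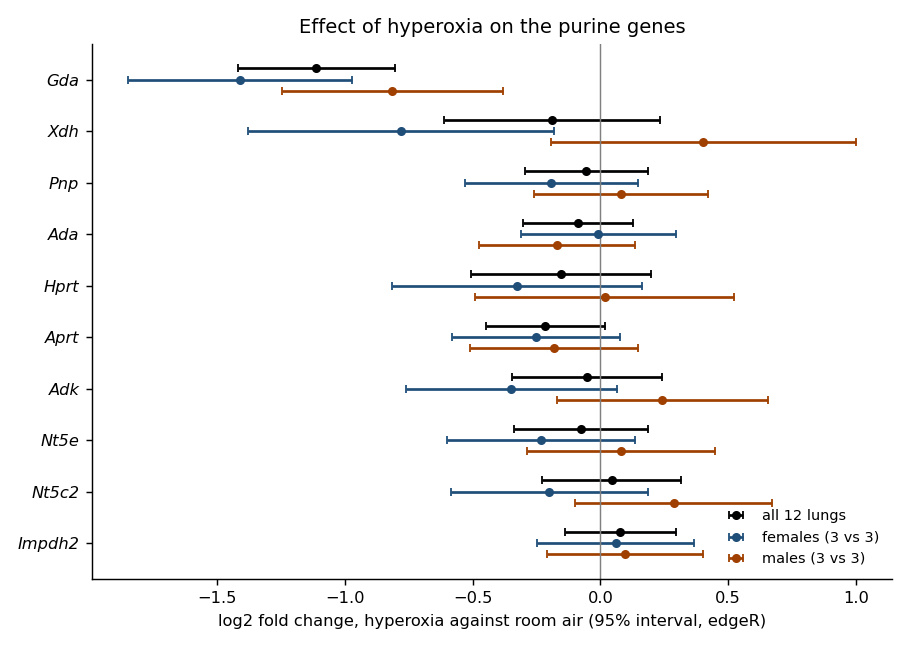
Log2 fold change of each purine gene, hyperoxia against room air (horizontal axis), over all 12 lungs (black), in females (blue) and in males (brown); points are edgeR estimates and bars their 95% intervals. *Gda* lies left of 0 in all 3 comparisons, at −1.11, −1.41 and −0.81, and the *Xdh* estimates of the sexes lie on opposite sides of 0, at −0.78 and 0.40.

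*Hprt*, *Adk*, *Nt5e* and *Nt5c2* varied together from lung to lung. The 6 pairs among them had Pearson r of log2 levels between 0.64 and 0.89 over the 12 lungs, and between 0.84 and 0.96 when the group means were removed. All 4 were low where the receptor share was high, with r of −0.96 for *Nt5e*, −0.92 for *Adk*, −0.86 for *Nt5c2* and −0.85 for *Hprt* against the log2 receptor share. *Gda* had an r of −0.32 with it, and *Impdh2* one of 0.51. The points share a library and its depth. When the receptor share was added as a covariate, log2 fold changes in females became 0.04 for *Adk*, 0.03 for *Nt5e*, 0.12 for *Nt5c2* and 0.23 for *Hprt*, against −0.35, −0.23, −0.20 and −0.33 without it. The estimates for *Gda* with this covariate were −1.42 in females and −0.81 in males. Background, taken as the read density on receptor genes times exon length, amounted to 10% of the counts of *Gda*, 5.23% of those of *Xdh* and 34.3% of those of *Pnp*, all lungs pooled. For *Gda* it was 4.34 to 8.17% in room air females and 18.1 to 25.3% in hyperoxia-exposed females. In males it was 7.29 to 13.2% in room air and 10.9 to 21.4% after hyperoxia.

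Females and males were compared over both exposures, a contrast that chose none of the genes. *Hprt*, the X-linked one, stood at 16.7 CPM on average in the 6 female lungs and 12.4 CPM in the 6 male lungs, a log2 fold change of 0.41 (standard error 0.17) with an unadjusted p of 0.0258 and an adjusted p of 0.563 (edgeR). The sexes overlapped, and without hyperoxia-exposed male lung 1 the log2 fold change was 0.62 and *Hprt* was called (adjusted p = 0.0115, edgeR). Without hyperoxia-exposed male lung 2 it was 0.285 (adjusted p = 0.926), and when the receptor share was a covariate 0.21 (adjusted p = 0.483). With 1 RUVr factor it was 0.42 (adjusted p = 0.00139, edgeR, below the fold threshold). None of the 10 was called with all lungs, where 1.22% of genes tested were, and *Gda* had a log2 fold change of −0.07 (95% interval −0.38 to 0.23).

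A wider list of 57 purine genes was examined beside the 10: *de novo* synthesis, the AMP and GMP branches, other nucleotidases, deaminases, phosphorylases and oxidases, kinases, transporters and adenosine receptors. All 57 were tested and 0 were called in any comparison. Over all lungs 19 had a positive and 38 a negative log2 fold change, with a median of −0.05 and a range from −0.47 to 0.38. At an unadjusted p under 0.05 there were 1 higher and 5 lower over all lungs, where 2.67% and 2.52% of all genes tested were. In females there were 2 higher and 7 lower (7.32% and 5.28% of all genes), and in males 0 higher and 4 lower (0.899% and 1.80%). All 6 genes of the AMP and GMP branches were negative over all lungs, from −0.16 to −0.05, and 4 of them were positive in males. The 4 adenosine receptors had a median of 0.02.

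The most negative of the 57 with a mean of at least 5 CPM was *Nt5c3*, a nucleotidase of pyrimidine nucleotides known from maturing red cells, at −0.47 (standard error 0.11, adjusted p = 0.152, edgeR). Its hyperoxia-exposed lungs lay below the room air lungs within each sex, at 19.7 ± 1.49 against 27.5 ± 3.81 CPM in females and 20.5 ± 3.06 against 27.9 ± 2.03 CPM in males (SD, n = 3). Such a separation was found for 6.42% of all genes tested in females and 3.89% in males, and over both sexes the exposures overlapped, with up to 23.3 CPM after hyperoxia and down to 23.1 CPM in room air. Other genes of the list also separated within a sex, some of them upward, such as *Nt5c1b* in females. *Samhd1*, which hydrolyses deoxynucleotides, had −0.47 over all lungs, with −0.90 in females and −0.03 in males. *Ak1*, an adenylate kinase of muscle and red cells, had −0.41. Room air male lung 1 held 42.8 CPM of *Ak1* and 2350 CPM of 10 summed skeletal muscle markers, where the other 11 lungs held 16.4 to 27 CPM of *Ak1* and 135 to 223 CPM of these markers, and the part of muscle in the *Ak1* value was not tested. At the other end stood *Nt5c1b*, a cytosolic AMP nucleotidase, at 0.38, the urate oxidase gene *Uox* at 0.25, and *Slc29a2*, a nucleoside transporter, at 0.17. Background amounted to 58.2% of the counts of *Uox* and 35.4% of those of *Nt5c1b*. None of these 6 was called.

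**Figure D4:**
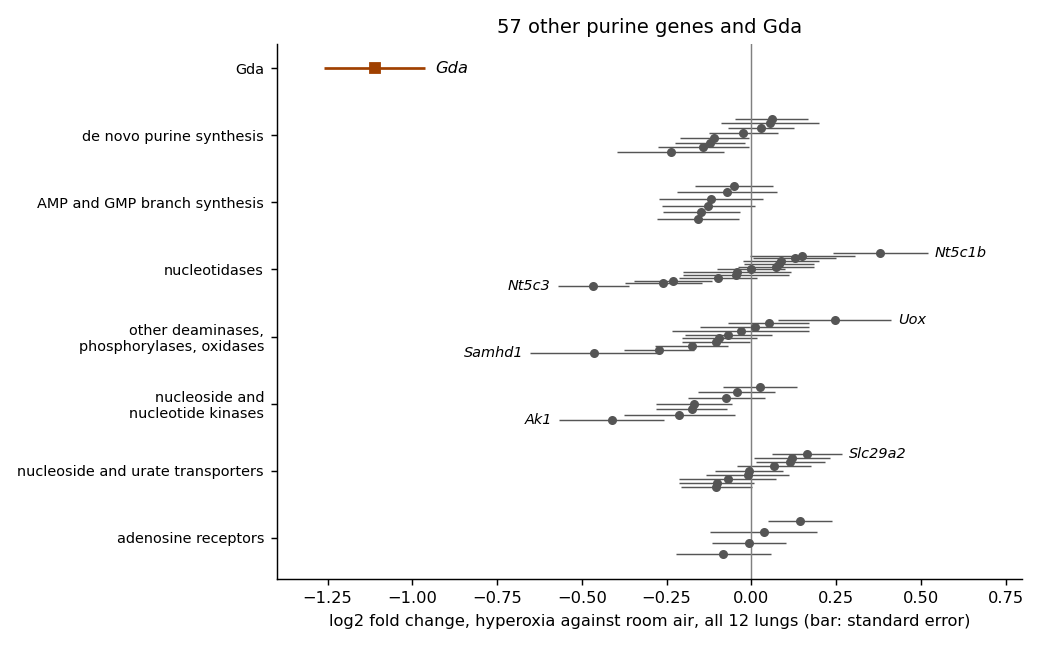
Log2 fold change over all 12 lungs, hyperoxia against room air (horizontal axis), of 57 further purine genes in 7 functional groups (rows) and of *Gda* (square, top row); points are edgeR estimates and bars 1 standard error. The 57 genes lie between −0.47 and 0.38, and *Gda* lies at −1.11.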

How the data were processed

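The authors trimmed reads with Trim Galore, aligned them to mm10 with STAR and deposited raw counts per gene from featureCounts. The strand setting and tool versions are not given in the sources used here. The methods name a QIAseq stranded kit, and the labels a NEBNext directional kit with rRNA depletion. The authors' ComBat-seq step, for which the methods name no batches, was not repeated, and their number of RUVr factors is not given, so the model held none. Counts of all 12 lungs were fitted as 4 groups in edgeR 4.0.16 (R 4.3.3) after filterByExpr and upper-quartile normalization, with robust quasi-likelihood tests; the biological coefficient of variation was 0.177. Correlations used log2 CPM with a prior count of 2. Exon lengths are those of GENCODE release 21 for mouse (55227 of 55487 genes matched). Sequences are RefSeq's. Figures were drawn with matplotlib 3.10.9. Code was tested on simulated data.

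The members, gene lists and tests were chosen with earlier results of these data known. The text names all 10 members, the 3 highest and 3 lowest of the wider list at 5 CPM or more, any of that list called, and the 5 genes most correlated with *Gda* before and after removing group means. Some genes that meet these rules are not reported here. The labels number the animals and give no batch other than a shared lane. The p-values rest on the spread between animals. The litter and oxygen chamber of each animal are not given in the labels, so their part was not tested. *Xist* and *Ddx3y* matched the labelled sex in 12 of 12 lungs. Alternatives were TMM, no filter, a filter of 10 counts, 1 RUVr factor (written out from its published steps), the receptor share or red cell level (chosen after the values were seen) as a covariate, DESeq2 1.42.0, 6 lungs of 1 sex, animal number as a replicate block, and each lung left out.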

Additional observations from a re-analysis of the deposited data

Results flagged for a closer look

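*Nt5c2* was picked out because its hyperoxia-exposed lungs lay on opposite sides of the room air mean in the sexes. In females all 3 hyperoxia-exposed lungs (59.2, 52.2 and 52.7 CPM) lay below the room air mean of 62.8 CPM, and in males all 3 (80.7, 53.9 and 61.8 CPM) lay above the room air mean of 53.7 CPM, 1 of them narrowly. The log2 fold change in females less that in males was −0.49 (standard error 0.27), with an unadjusted p of 0.0771 and an adjusted p of 0.578 (edgeR interaction test). The same lungs picked out the gene, so these p-values are no independent test. Leaving out 1 lung moved the log2 fold change in males to 0.11 (without hyperoxia-exposed lung 1) and in females to −0.07 (without room air lung 5). The receptor share moved with *Nt5c2*, at a Pearson r of −0.86 over 12 libraries. With it as a covariate the log2 fold change was positive in both sexes, 0.12 (standard error 0.10) in females and 0.20 (0.09) in males, against −0.20 and 0.29 without it. Groups of 3 lungs are too small for a test of single outlying lungs.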

How the results depend on the processing

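The log2 fold change of *Gda* after hyperoxia was negative over all lungs, in females and in males under every alternative run. Over all lungs it lay between −1.18 and −1.02 with each lung left out. In females, which chose *Gda*, this range was −1.55 to −1.22, and the call was lost without room air lung 2 and without hyperoxia-exposed lung 2, 4 or 5. In males it was −0.93 to −0.73, and over the alternatives there the adjusted p ran from 0.414 to 1 (edgeR or DESeq2). Of the 10 genes, 0 were called over all lungs with the receptor share or the red cell level as a covariate, and 0 in females with TMM, with the receptor share or with the red cell level; leaving out a lung gave 0 to 1 in females and in the comparison of the sexes, the latter *Hprt* without hyperoxia-exposed male lung 1. The lost calls are those of *Gda*, whose estimate was −1.12 over all lungs and −1.42 in females with the receptor share and −1.45 in females with TMM, against −1.11 and −1.41, while the red cell level brought it to −0.41 and −0.57. The receptor share widened its standard error in females from 0.214 to 0.287 and TMM to 0.243.

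Under alternatives that kept all lungs or 1 sex, 239 values of the 10 genes kept direction and side of the threshold, 20 changed sign and 5 (all of *Gda*) lost the call. Those that changed sign in females were *Ada* (0.062 with the filter of 10 counts, 0.0185 with 6 lungs only, 0.0487 with the replicate block) and *Impdh2* (−0.031 with DESeq2), and with the receptor share *Adk* (0.0415), *Hprt* (0.228), *Nt5c2* (0.12), *Nt5e* (0.0307) and *Impdh2* (−0.0434). Over all lungs the receptor share gave *Adk* 0.0833, *Hprt* 0.019 and *Nt5e* 0.0202. *Hprt* in males was −0.0023 with the filter of 10 counts, −0.0722 with RUVr, −0.19 with the receptor share and −0.35 with the red cell level. The red cell level also gave *Nt5c2* −0.13 and *Pnp* 0.25 over all lungs, *Pnp* 0.18 in females and *Nt5e* −0.0559 in males. With a lung left out, signs changed for *Ada* (−0.0601 to 0.0457) and *Impdh2* (−0.0371 to 0.173) in females, *Adk* (−0.146 to 0.0438), *Nt5c2* (−0.0445 to 0.109), *Pnp* (−0.131 to 0.0065) and *Xdh* (−0.302 to 0.0467) over all lungs, and *Hprt* (−0.39 to 0.27), *Nt5e* (−0.0537 to 0.178) and *Pnp* (−0.07 to 0.20) in males.

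Counts of genes called moved more. In females, with 1 gene, they were 0 with TMM or the red cell level, 8 without filter, 22 with the receptor share, 44 with DESeq2, 80 with 6 lungs only, 1900 with RUVr and 451 with the replicate block. Animal numbers 2 and 5 occur in both female groups. The deviations of same-numbered lungs from their group means had r of 0.21 and −0.33 over 16437 genes. These 2 pairs are too few to decide whether the numbers mark a pairing, and the main fit took them as names of animals. With the replicate block *Gda* was −1.57 and *Xdh* −0.21. In males, with 0, counts were 2 with 6 lungs only, 6 with the receptor share and 16 with RUVr, which gave 2102 in the interaction. Over all lungs, with 19, they were 0 with the red cell level, 40 with DESeq2 and 92 with RUVr, and between the sexes, with 559, they were 266 with the filter of 10 counts, 976 with the receptor share, 1004 without filter and 1006 with RUVr. With each lung left out counts ran from 3 to 37 over all lungs, 0 to 206 in females (206 without room air lung 6), 476 to 687 between the sexes, and 0 to 0 in males and in the interaction. Depth limits *Hprt* most among the 10 genes, with 68 counts in its lowest lung, and *Pnp2* in the wider list, with 30.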
